A study of Mus musculus with 2 samples.

Results

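Mast cells are tissue-resident cells of the blood lineage that settle in skin, mucosa and connective tissue and depend on the receptor tyrosine kinase Kit. Their granules hold serine proteases (chymases and tryptases), carboxypeptidase A3 and histamine bound to serglycin, and antigen that crosslinks IgE on the high-affinity IgE receptor releases them. Connective tissue mast cells, the type that fills the dermis, are known for Cma1, Mcpt4, Tpsb2 and Cpa3, whereas Mcpt1 and Mcpt2 belong to mucosal mast cells. The mast cell genes described here were picked by name, with earlier results of these data known. They were Cma1, Mcpt4, Tpsb2, Tpsab1, Cpa3, Fcer1a, Ms4a2 and Hdc, 8 of the 24323 named genes on the array, and they were measured by 9 of its 55675 probes.

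The study compared the tooth germ with the skin of wild-type mice, to set the genes of the 2 tissues apart in work on the transcription factor Sox21. RNA from each tissue was hybridised to 1 Agilent SurePrint G3 mouse expression array, in a single colour with Cy3. Both tissues were labelled P0, the day of birth, whereas the methods of the study gave a stage a day later. The wild-type mice of the study were C57BL/6J per its methods, and the labels give neither the sex of the pups nor how many were pooled. Both tissues are mixtures, the tooth germ of epithelium and mesenchyme and the skin with its hair follicles, and no cells were sorted.

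Each tissue was measured on 1 array, so the spread among animals is unknown, no difference below was tested and none has a replicate check. A level is the log2 of the intensity relative to the 75th percentile of the same array, and a difference is the skin level minus the tooth level on the log2 scale. The error given with an intensity or a difference is that of the scanner software for single spots, since each mast cell probe had 1 spot per array. It leaves out dissection, RNA preparation and labelling. Levels of different probes were not set against each other, because probes differ in how brightly they bind.

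The tissue labels were checked first. Amelx, Ambn, Enam and Dspp, which encode enamel and dentin matrix proteins, stood well above background in tooth and not in skin. Krt1, Krt10, Flg and Lor, genes of the differentiating epidermis, were well above background on both arrays and at least 2-fold higher in skin in 4 of 4 cases. A gene was tested if at least 1 array read it well above background, which held for 17409 of the 24323 named genes. Over these the median difference was -0.04, and 14.2% of them were at least 2-fold higher in skin against 15.5% in tooth. Of 308 negative control spots per array, 0 were called well above background in tooth and 1 in skin.

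The probes are shown here because each reading depends on what its probe binds. All 9 are 60 bases long and their positions are those of the array annotation in mm9. No genome of that build was used here, so the exon or UTR beneath a probe was not looked up. The 4 sequences below each had a reading frame with no stop codon over the whole probe. So did every other mast cell probe except that of Cpa3, so this trait does not mark a probe as coding. The lower case letters are the probe 5′ to 3′ in the sense of the transcript:
Cma1 (chr14:56561491-56562550, minus strand): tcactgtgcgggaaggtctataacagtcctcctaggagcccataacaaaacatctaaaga
Tpsb2, first probe (chr17:25504493-25504552, plus strand): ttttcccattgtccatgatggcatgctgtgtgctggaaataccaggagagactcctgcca
Tpsab1 (chr17:25480640-25480699, minus strand): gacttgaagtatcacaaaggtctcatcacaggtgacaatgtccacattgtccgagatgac
Hdc (chr2:126419516-126419575, minus strand): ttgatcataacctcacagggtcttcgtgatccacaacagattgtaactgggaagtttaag

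The Cma1 probe covers 1060 bases of the genome with 60 bases of sequence, so its ends lie in different blocks of the alignment. The second Tpsb2 probe lies at chr17:25504819-25504878 on the plus strand, downstream of the first. The probes of Mcpt4 (chr14:56678589-56678648), Cpa3 (chr3:20115674-20115733), Fcer1a (chr1:175151438-175151497) and Ms4a2 (chr19:11691701-11691760) all read the minus strand. The Fcer1a probe ends in a polyadenylation signal, in capitals here among its last 30 bases:
Fcer1a: actgcagctggttatgtaacatgcAATAAA
The longest run of bases that a mast cell probe shared with a probe of another gene was 12 to 15 bases, with 1 exception. Probes were compared with probes only, not with whole transcripts, so binding to related chymase or tryptase transcripts was not checked. The Mcpt4 probe shared 27 bases with the probe of Mcpt-ps1, a neighbouring chymase pseudogene, so cross-binding of their transcripts was possible. The Mcpt-ps1 probe itself did not stand well above background in either tissue.

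The 6 mast cell genes that could be compared were higher in the skin. The chymases Cma1 and Mcpt4, the tryptases Tpsb2 and Tpsab1, the carboxypeptidase Cpa3 and the histamine-forming enzyme Hdc were all at least 2-fold higher in skin than in tooth. The IgE receptor subunits Fcer1a and Ms4a2 were not well above background in either tissue. Thus 6 of the 8 mast cell genes entered the comparison and 2 did not. Of all named genes 28.4% did not enter, a share close to 2 of 8. Of the 6 that entered, 6 exceeded 2-fold in skin, where 14.2% of all genes tested did. Of the 6, only Mcpt4, Tpsb2, Cpa3 and Hdc were well above background on both arrays, and 4 of these 4 exceeded 2-fold beside 11.4% of the 15271 genes measured on both. Cma1 and Tpsab1 entered through the skin array alone, so the filter favoured a higher value in skin. The median difference of the 6 was 2.04, a 4.11-fold higher level in skin, beside -0.04 for all genes tested. With the dim tooth values of Cma1 and Tpsab1 set to their bound the median was 1.83 and the count stayed at 6, beside 14% of all genes. In bulk tissue, fewer mast cells and less RNA per mast cell cannot be told apart.

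**Figure D1:**
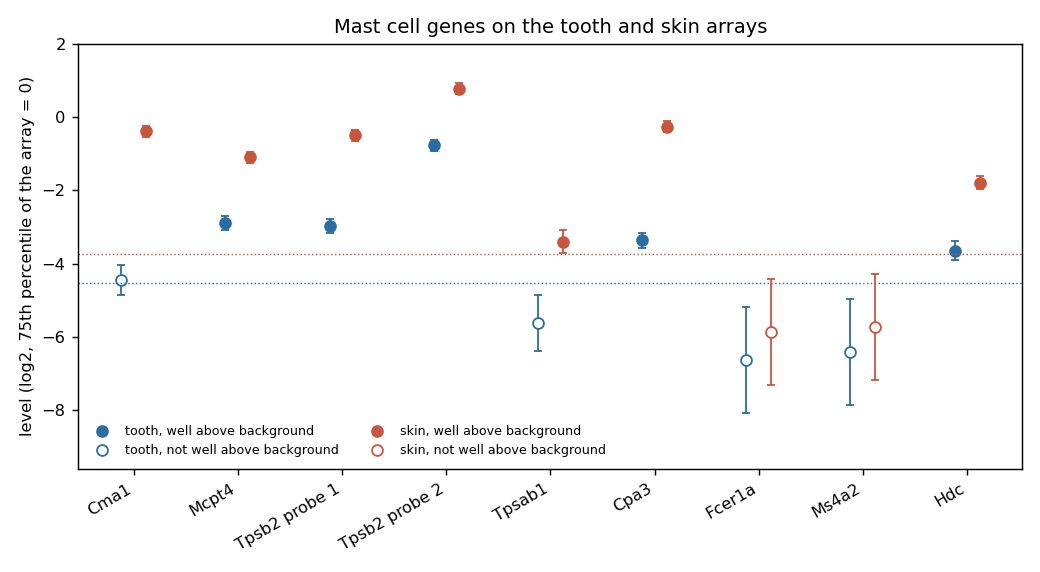
Level of each mast cell probe (log2, the 75th percentile of the array at 0) on the tooth array (blue) and the skin array (red), with bars for the scanner software's error of the spot. Filled points were well above background, open points were not, and each dotted line is the lowest signal called well above background on the array of its colour (-4.52 in tooth, -3.73 in skin). The 7 probes of the 6 genes with a filled point lie higher in skin, and the points of Fcer1a and Ms4a2 are open on both arrays.

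Cma1 encodes the alpha chymase of connective tissue mast cells, a granule protease held on heparin. Its probe read 19.6 ± 5.53 in tooth and 211 ± 21.8 in skin (processed intensity, arbitrary units). The tooth spot was significantly above its local background but not well above it, so the size of the fold is uncertain. As measured, Cma1 was 16.7-fold higher in skin, with levels of -4.45 in tooth and -0.39 in skin. The tooth level lay above the lowest level called well above background (-4.52), so the bound equals the measured fold and is not a lower limit. In place of 4.06, its difference was 3.44 with spike-in scaling and 2.12 with the normexp background correction.

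Mcpt4, a chymase of mouse connective tissue mast cells, was measured on both arrays. The intensity was 57.4 ± 7.56 in tooth and 129 ± 13.9 in skin. The difference was 1.80 ± 0.25, a 3.48-fold higher level in skin, and 94.4% of the genes measured on both arrays had a lower difference. With spike-in scaling the difference was 1.18 and with the normexp correction 1.19. The 27 bases shared with the Mcpt-ps1 probe apply to these values.

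Cpa3, the carboxypeptidase that is stored with the chymases in the granule, had the highest difference of the 4 genes measured on both arrays. Its intensity was 41.8 ± 5.97 in tooth and 231 ± 23.5 in skin. The difference of 3.1 ± 0.25 was an 8.57-fold higher level in skin and lay above that of 97.5% of the genes measured on both arrays. With the normexp correction it was 2.01.

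Tpsb2, a tryptase stored on heparin in connective tissue mast cells, had a pair of probes, and both were well above background on both arrays. The brighter probe, which stands for the gene, read 251 ± 25.6 in tooth and 475 ± 47.8 in skin, which differed by 1.55 ± 0.21 (2.92-fold). The first probe, whose sequence is given above, read 54.6 ± 7.27 in tooth and 196 ± 20.2 in skin, which differed by 2.48 ± 0.24 (5.56-fold). The probes therefore gave the same direction and different sizes, with a gap of 0.93 ± 0.32. Among the 3241 genes with 2 probes measured on both arrays the median gap was 0.26, and 89.7% had a smaller gap than Tpsb2. On a scale set by the spike-in transcripts in place of the 75th percentile, the brighter probe fell short of 2-fold, with a difference of 0.93.

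Tpsab1 is named for a second mast cell tryptase. RefSeq lists it with a non-coding transcript alone, so the probe kept its array name. Its readings are of RNA and do not show that a tryptase was made. The intensity was 8.73 ± 4.64 in tooth and 26.2 ± 5.59 in skin. The tooth spot was not well above background, and Tpsab1 was at least 2.17-fold higher in skin. Its skin intensity was within the range of the negative control spots, the highest of which read 27.0 on that array. With the normexp correction the difference was 0.93, which is under 2-fold.

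Hdc, histidine decarboxylase, makes histamine from histidine and is used by basophils and some neurons and gastric cells as well as by mast cells. Its intensity was 34.2 ± 6.0 in tooth and 80.1 ± 9.56 in skin. The difference was 1.86 ± 0.31, or 3.63-fold, above that of 94.7% of the genes measured on both arrays. With the normexp correction it was 1.12. The gap between Hdc and Mcpt4 (0.06 ± 0.39) and the gap between Mcpt4 and Tpsb2 (0.25 ± 0.32) did not exceed their errors. The gap between Cpa3 and Hdc, 1.24 ± 0.40, did. These errors are of single spots and leave out differences between probes, which came to 0.93 for the pair of Tpsb2 probes, so they do not settle the order. The place of Tpsb2 in this order rests on its brighter probe, for the first probe lay 0.68 ± 0.35 above Mcpt4 and 0.62 ± 0.39 above Hdc. The difference of the first Tpsb2 probe less that of Cpa3 was -0.62 ± 0.35. Cma1 and Tpsab1 were left out of this order, since their tooth values were not well above background.

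Fcer1a encodes the IgE-binding alpha chain of the high-affinity IgE receptor and Ms4a2 its signal-amplifying beta chain. Fcer1a read 4.31 in tooth and 4.73 in skin, and Ms4a2 read 5.0 in tooth and 5.19 in skin. All 4 of these readings were surrogates that the software put in place of values too dim to measure. They lie within the range of the negative control spots, and no fold is given for them. Of the 308 negative control spots on an array, 35.7% (tooth) and 38.0% (skin) read lower than Fcer1a, and 87.3% (tooth) and 68.2% (skin) read lower than Ms4a2. The third chain of the receptor, Fcer1g, is shared with Fc receptors of macrophages, neutrophils and other leukocytes. It was well above background on both arrays, with a level of 2.0 in tooth and 1.53 in skin, which makes a difference of -0.47.

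**Figure D2:**
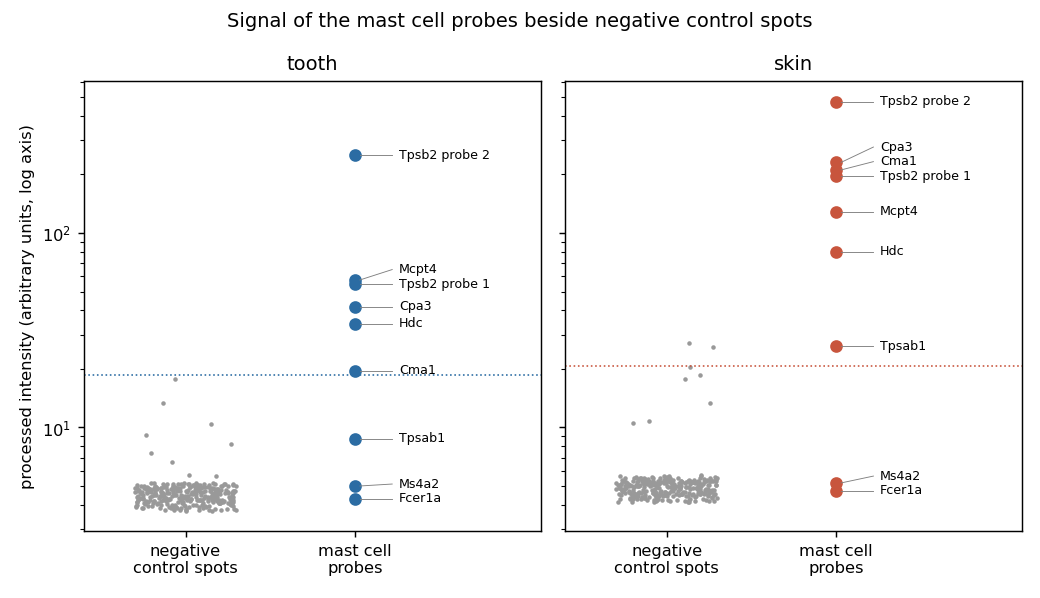
Processed intensity (arbitrary units, log axis) of the 308 negative control spots (grey) and the 9 mast cell probes (coloured) on the tooth array (left) and the skin array (right). The dotted lines mark the lowest intensity called well above background, 18.7 in tooth and 20.8 in skin (the tooth spot of Cma1, at 19.6, did not get that call), and the Fcer1a and Ms4a2 probes lie among the bulk of the negative controls on both arrays.

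The scaling raised the skin values relative to the tooth values, since the 75th percentile was 428 for tooth and 276 for skin. The mast cell probes were nevertheless brighter in skin before any scaling. The unscaled ratio of skin to tooth intensity ran from 1.89 for the brighter Tpsb2 probe to 10.8 for Cma1 over the 7 probes of the 6 genes. Repeated spots of other probes show how far single spots scatter at these intensities. Their median SD was 0.57 (tooth) and 0.47 (skin) at 5 to 20 units, 0.32 and 0.26 at 20 to 50 units, and 0.12 and 0.10 at 100 to 250 units (log2). The tooth reading of Tpsab1 is in the dimmest of these ranges, as is that of Cma1.

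**Figure D3:**
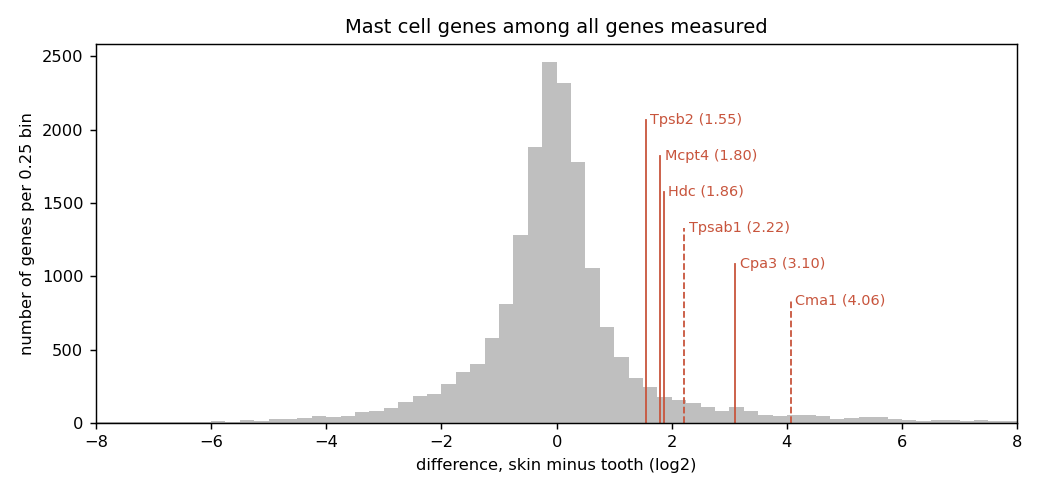
Number of genes per 0.25 bin of the difference, skin minus tooth (log2), over the 17409 genes tested, shown from -8 to 8. The lines mark the 6 mast cell genes, dashed where the tooth value was not well above background (Cma1 and Tpsab1), and all of them lie to the right of the upper quartile of 0.47.

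Cma1 and Mcpt4 lie in the chymase locus, where proteases of mast cells, basophils, neutrophils and cytotoxic lymphocytes stand side by side. The probes of this locus span 316 kb (chr14:56561491-56877975, mm9) and represent 17 genes, and 6 of them were read well above background by 1 array or both. Besides Cma1 and Mcpt4 these were Cma2, Mcpt8, Ctsg and Gzmc. Of all named genes, 28.4% were well above background on neither array. Neither array read the mucosal mast cell proteases Mcpt1 and Mcpt2 well above background. Of 13 further genes of this locus, 4 were tested. Past 2-fold lay 1 in skin (Gzmc, at least 3.47-fold) and 1 in tooth as measured (Mcpt8, difference -2.24). The shares of all genes tested were 14.2% in skin and 15.5% in tooth. Mcpt8 marks basophils. Tooth alone read it well above background, and its bound was at least 1.16-fold. Cma2, a chymase relative next to Cma1, had a difference of 0.53, and Ctsg, cathepsin G of neutrophils and mast cells, one of -0.41.

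The tryptase locus holds Tpsb2 and Tpsab1 within 74.3 kb (chr17:25436942-25511258, mm9). Its probes represent 6 genes, and 5 were read well above background by 1 array or both. Tpsg1, the transmembrane gamma tryptase, was at least 3.32-fold higher in skin. Prss28, an implantation serine protease, was measured on both arrays with a difference of 2.01. Neither array read Prss29 well above background.

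**Figure D4:**
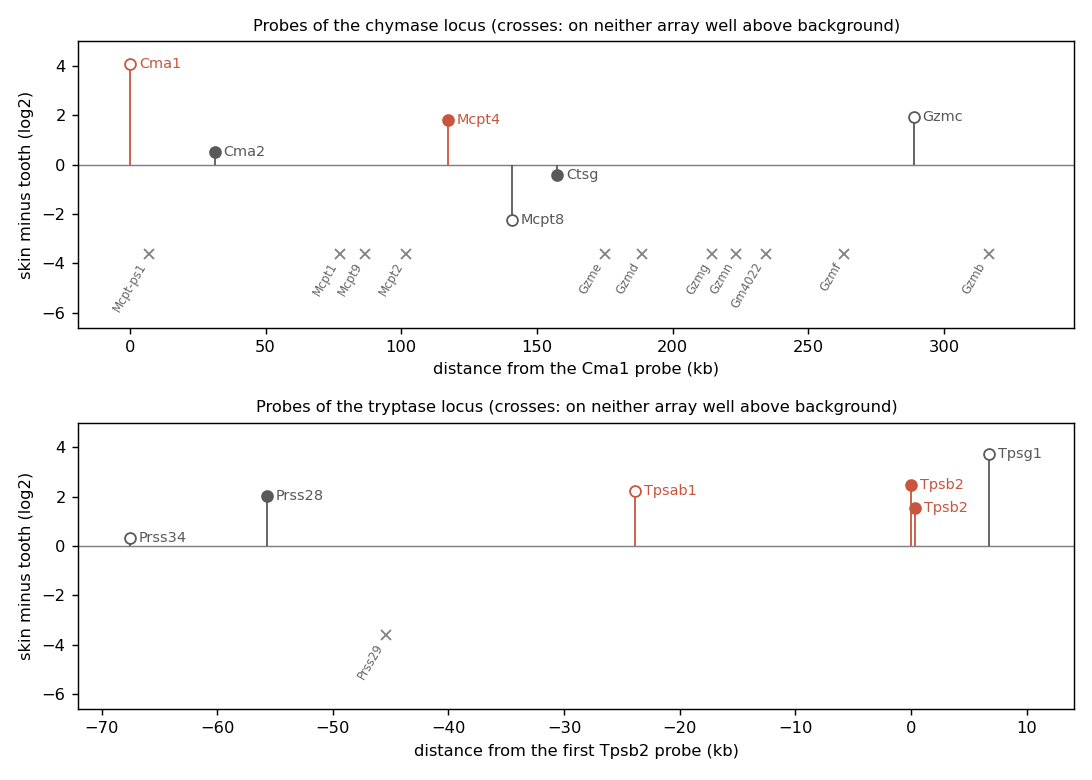
Difference, skin minus tooth (log2), of each probe in the chymase locus (top, distance from the Cma1 probe in kb) and the tryptase locus (bottom, distance from the first Tpsb2 probe in kb). Mast cell genes are red and neighbours grey, filled where both arrays were well above background and open where only 1 was. Crosses at a fixed height mark genes well above background on neither array, 11 of 17 in the chymase locus and 1 of 6 in the tryptase locus.

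Mast cell genes are known to be under the control of GATA factors and Mitf, so their promoters were read in RefSeq (GRCm38.p6), from 250 bases before to 50 bases after the gene start. Promoters matched 6 of the 8 genes, all but Tpsb2 and Tpsab1. A GATA motif (AGATAA or AGATAG or TGATAA or TGATAG, on either strand) occurred in 6 of these 6 windows and in 29.8% of 32851 promoters of the same length. Stretches of 30 bases around 1 motif per gene, in capitals and read 5′ to 3′ on the strand of the gene, were as follows:
Cpa3 (chr3:20242210-20242239, minus strand): agctgttcgtcgAGATAAaagctgaggtat
Cma1 (chr14:55944737-55944766, minus strand): acagttgaggacCTATCTgagtatctggga
Mcpt4 (chr14:56062396-56062425, minus strand): catgagaatttcTGATAAggaaagtagagc
Hdc (chr2:126618882-126618911, minus strand): caggggcagggaTGATAGagggctctttta
Fcer1a (chr1:173227304-173227333, minus strand): acaaccctattaTTATCTctggagaaagcc
Ms4a2 (chr19:11623739-11623768, minus strand): cagcctggagacTTATCTgacaagtaggtt

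These motifs began 46 bases before the start in Cpa3, 79 in Cma1, 92 in Fcer1a, 103 in Mcpt4 and 221 in Hdc. In Ms4a2 there were motifs 224, 37 and 11 bases before it. The motif was therefore present both in genes that were higher in skin and in the pair of receptor genes that neither array measured. The E-box letters CACATG and CACGTG, bound by Mitf, occurred on either strand in 1 of the 6 windows (Fcer1a) and in 20.4% of promoters. The letters TATAAA on the gene's strand occurred in 3 of 6 (Fcer1a, Cpa3 and Mcpt4) and in 8.32% of promoters. A match is a description of the letters and does not show that a factor binds there.

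Transcription factors of mast cells had differences of both signs. For this list and those that follow, the shares of all genes tested were 14.2% past 2-fold in skin and 15.5% in tooth. Of 6 genes listed, 4 were tested, and past 2-fold lay 1 on the side of skin and 2 on that of tooth, with a median difference of -0.30. This median rests on the probe chosen for Runx1, which had a difference of 0.58 on its brighter probe and -0.85 on the other, and with the latter it was -1.02. Mitf, which mast cells share with melanocytes, had a difference of 1.25, with a level of 1.29 in tooth and 2.54 in skin. Gata2, which blood progenitors and other tissues also use, was at least 2.18-fold higher in tooth. Tal1 had the most negative difference of the list (-1.40). Melanocyte markers lay on the same side as Mitf. All 5 exceeded 2-fold in skin, and Tyrp1, with the highest difference, was at least 297-fold higher. Their part in the Mitf value was not tested.

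Kit, the receptor on which mast cells depend and which melanocytes and germ cells also carry, was on the opposite side from the mast cell genes tested. Its level was 1.29 in tooth and 0.58 in skin, and the difference was -0.71. Its ligand Kitl had a difference of 0.47. Of 9 genes of the Kit axis and other growth or surface receptors, 7 were tested, of which 2 exceeded 2-fold in skin and 1 in tooth, with a median of 0.47. One of these skin counts rests on the probe chosen, since Csf2rb2 had a difference of 2.04 on its brighter probe and -1.01 on the other. With the other probe, 1 gene exceeded 2-fold in skin and 2 in tooth, and the median was -0.71. Adora3, an adenosine receptor of mast cells, was at least 2.94-fold higher in skin. Csf2rb, the common beta chain of the interleukin and GM-CSF receptors, had a difference of -3.15 on the brighter of its probes and -1.13 on the other.

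Genes that carry the signal of the IgE receptor were mostly within 2-fold. Of 13 listed, 11 were tested, 1 exceeded 2-fold in skin, 2 did in tooth and 8 lay between, with a median of -0.21. Plcg2, a phospholipase, had a difference of 1.55, and Vav1, an exchange factor of blood cells, one of -2.64. Most of these genes are used by other leukocytes too.

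Among 11 further granule and mediator genes, 10 were tested, and 5 exceeded 2-fold in skin and 0 in tooth, with a median of 1.05. Of all genes tested, 14.2% exceeded 2-fold in skin and 15.5% in tooth. The 5 were Hpgds, Ptgs1, Alox5, Alox5ap and Rab27b. Srgn, Ltc4s, Ndst2 (-0.54), Slc18a2 (-0.32) and Cd63 lay within 2-fold. Hpgds, the prostaglandin D synthase of mast cells and other blood cells, was at least 10.1-fold higher in skin, with a level of -6.01 in tooth and -1.18 in skin. Srgn, the proteoglycan core that binds the proteases in the granule and is found in most blood cells, differed by 0.54. Cd63, a membrane protein of granules and endosomes in many cells, had the most negative difference (-0.74). Of 6 histamine breakdown enzymes and receptors, 4 were tested and 0 exceeded 2-fold in either direction, with values from -0.11 to 0.30.

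Markers of other leukocytes were counted in the same way. Of all genes tested, 14.2% exceeded 2-fold in skin and 15.5% in tooth, so 1 gene past 2-fold in a short list says little. Of 6 neutrophil genes, 4 exceeded 2-fold in tooth as measured, or 3 with dim skin values at their bound, and 0 did in skin. Mpo, with the most negative difference, was higher in tooth by at least 30.1-fold on its brighter probe. Its other probe, also dim in skin, had a tooth level of -3.15 and a difference of -2.78 as measured. Of 4 macrophage markers tested, 0 exceeded 2-fold in skin and 1, Cd68, did in tooth (difference -1.79). Of 3 basophil markers, Mcpt8 and Prss34 were well above background in tooth alone and Cd200r3 was not in either tissue. These calls do not give a shared direction. Prss34 had a difference of 0.33, so its level was higher in skin, whereas Mcpt8 was at least 1.16-fold higher in tooth. Of 4 lymphocyte markers tested, 2 exceeded 2-fold in skin, with a median of 1.11. Ptprc, the CD45 antigen of all leukocytes, had a level of -3.65 in tooth and -3.67 in skin, and in skin it was not well above background. Of 4 pan-leukocyte markers, 1 exceeded 2-fold in skin (Cd52, 1.48) and 0 in tooth. Of 3 Langerhans cell markers, 2 were tested and 1 exceeded 2-fold in skin, Cd74, which antigen-presenting cells share (difference 2.87), whereas neither array read Cd207, their defining marker, well above background. Of 3 eosinophil markers only Epx was tested, which tooth alone read well above background (at least 1.61-fold higher). The part of other leukocytes in the mast cell gene values was not tested.

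**Figure D5:**
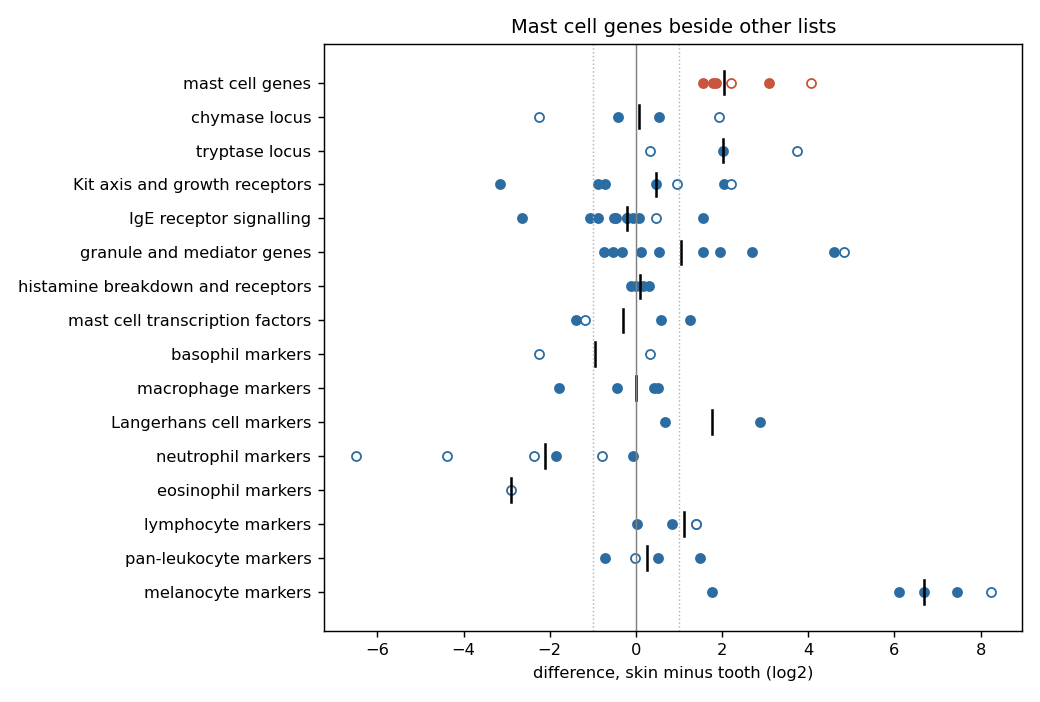
Difference, skin minus tooth (log2), of each gene tested in the mast cell list (red) and in 15 other lists (blue), filled where both arrays were well above background and open where only 1 was. Black bars are list medians and dotted lines mark 2-fold. The 6 mast cell genes lie between 1.55 and 4.06, and the neutrophil markers have a median of -2.11 as measured, or -1.40 with dim values at their bound.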

How the data were processed

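Arrays were 1 of tooth and 1 of skin. The deposited spot intensities had been background-subtracted and detrended, per the file headers, by Agilent Feature Extraction (version 10.7.3.1, named in the submitters' processing notes). The methods name GeneSpring, removal of very dim entities and a percentile shift. A further table from the authors gave 1 ratio per spot, the processed intensity over a factor per array, and served as an alternative.

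Outlier spots were left out, spots of a probe were averaged as log2 values, and the 75th percentile over non-control probes was subtracted from each array. A probe counted as measured when over 50% of its spots had the software's call of well above background, and the probe with the highest mean stood for its gene. A gene was tested when measured on at least 1 array. Where the other array was dim, the fold is a bound against the lowest signal called well above background there, or the probe's own value if higher. Surrogates stood for 25.0% of tooth spots and 27.7% of skin spots, and no spot was saturated. The number of arrays limits the precision. No p-value was calculated.

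The mast cell genes and the 17 other lists were chosen with earlier results of these data known. Named were the mast cell genes, Kit, Kitl, Fcer1g, Gata2, Mitf, Srgn, Ptprc, Mcpt1, Mcpt2, Mcpt8 and the highest and lowest difference of a list. Other neighbours in the loci, other members of the lists, the second probes of Csf2rb2, Runx1 and Mpo and the tissue check genes were named after their values were seen. Symbols came from RefSeq (GRCm38.p6) by unversioned accession, which matched 8 of the 9 probes. The values of lists with the other probe of a gene or at the bound were added after the data were seen. The averaging of spots and the scaling were tested on simulated arrays with known differences, for probes well above background. That test did not cover the choice of a gene's probe, the detection filter or the bound for dim values. Tools were Python 3.11.15, numpy 2.4.6, pandas 2.3.3 and, for normexp with an offset of 50, limma 3.58.1 in R 4.3.3.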

Additional observations from a re-analysis of the deposited data

How the results depend on the processing

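The 6 mast cell genes tested were higher in skin under the main setting and 10 alternatives, of which 1 tested only the 4 measured on both arrays (median 1.83, with 4 past 2-fold). The median difference of 2.04 became 1.41 with spike-in scaling and 1.24 with the normexp background correction, and in each case 5 genes exceeded 2-fold, Tpsb2 (0.93) and Tpsab1 (0.93) being the respective exceptions. Spike-in scaling also moved the median of all genes tested to -0.67, so that the shift is common to all genes, and 9.04% of them then exceeded 2-fold in skin, against 10% with normexp. Spike-in scaling and normexp also moved Mcpt4 (1.18 and 1.19) and Hdc (1.24 and 1.12). Under median shift, quantile normalization, the deposited ratios, a lenient call, the mean of a gene's probes and dim values at their bound, the median lay between 1.79 and 2.11, and 6 genes exceeded 2-fold. The share of all genes past 2-fold in skin under these settings ran from 11.6% (median shift) to 17.3% (lenient call). With no filter on dim probes 6 of 8 mast cell genes exceeded 2-fold, beside 15.1% of all genes. The median was then 1.83, which includes the surrogate readings of Fcer1a (0.77) and Ms4a2 (0.68). Of the values of single genes, 13 moved by more than the typical scatter of a difference (0.35) and 45 did not. Many of the 45 could not move, so this count does not measure robustness. The lenient call, the lack of a filter and the limit to both arrays leave a gene's value as it was. The median shift and the deposited ratios add the same small amount to every gene. No paired analysis was possible because each tissue had 1 array, and for the same reason no array could be left out. Dim signal limits Cma1, Tpsab1, Fcer1a and Ms4a2.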
